A study of Mus musculus with 8 samples.

Results

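The genes described here are 5 alpha-arrestins, Txnip, Arrdc1, Arrdc2, Arrdc3 and Arrdc4, and 2 transcription factor genes, Mlx and Mlxip, together 7 of the 12823 rows of a gene count table. They were chosen by name, because aggressive AML replicate 3 stands apart from the other libraries in Txnip, Arrdc3 and Arrdc4. The values of that library in these 3 genes are therefore given as a description, and the difference between the groups was tested in them without it. All 7 rows were present, and all 7 passed the filter on low counts. The table holds RNA-seq of mouse acute myeloid leukemia (AML) driven by the fusion gene MLL-AF9, with 4 libraries of new AML and 4 of aggressive AML. For new AML, mouse bone marrow progenitors were transduced with a retroviral vector that carries MLL-AF9 and GFP, and were transplanted into sublethally irradiated wild-type C57BL/6 hosts. GFP-positive cells of the leukemia that arose after about 2 months were then collected. Aggressive AML was raised from the remaining cells by 5 rounds of transplantation, which the study describes as passages through non-irradiated mice. Both groups thus carry the same fusion and reporter, and both were labelled as bone marrow. They differ at once in the number of transplantations, in the treatment of the hosts and in the time since transduction. The description gives 1 transduction as the source of both groups, so that the replicates are not known to cover independently generated leukemias. The labels call them biological replicates without naming the mouse of each.

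Alpha-arrestins are adaptor proteins that bring ubiquitin ligases of the NEDD4 family to membrane proteins, and TXNIP, the best known of them, also binds thioredoxin and promotes the uptake of glucose transporters into the cell. TXNIP and ARRDC4 are classical products of a glucose-responsive programme, in which MondoA, the protein encoded by Mlxip, pairs with MLX and binds carbohydrate response elements in DNA when hexose phosphates accumulate. Such an element consists of a pair of E-box-like motifs separated by a short spacer.

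The sequences upstream of the 3 genes in which replicate 3 stands apart are shown because Txnip and Arrdc4 are the textbook targets of MondoA and MLX, whereas Arrdc3 is known better as a beta-adrenergic and growth-control gene. Each is the stretch of 250 bases before the RefSeq start site in GRCm38.p6, read from 5′ to 3′ on the strand of the gene. Capitals mark matches on either strand to 5 motifs: the direct carbohydrate response element (CACGNG, a spacer of 5 bases and CACGNG again), its facing form (CANGNG, a spacer of 5 bases and CNCNTG), the E-box CACGTG, the CCAAT box and the FOXO motif GTAAACA. The E-box can form an arm of the direct element, and no marked stretches overlap in the sequences shown. The forms were chosen with the Txnip sequence known.
Txnip, chr3:96557707-96557956, plus strand: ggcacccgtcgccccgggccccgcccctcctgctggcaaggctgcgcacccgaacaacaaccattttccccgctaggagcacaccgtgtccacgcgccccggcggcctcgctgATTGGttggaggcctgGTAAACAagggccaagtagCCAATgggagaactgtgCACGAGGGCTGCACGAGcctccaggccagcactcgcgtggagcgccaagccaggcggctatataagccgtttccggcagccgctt
Arrdc4, chr7:68749239-68749488, minus strand: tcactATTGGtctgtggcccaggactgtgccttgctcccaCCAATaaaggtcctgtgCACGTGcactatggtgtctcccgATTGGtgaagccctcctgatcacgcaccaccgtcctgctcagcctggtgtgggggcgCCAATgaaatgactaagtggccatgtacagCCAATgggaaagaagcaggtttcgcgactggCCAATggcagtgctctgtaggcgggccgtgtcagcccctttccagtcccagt
Arrdc3, chr13:80883134-80883383, plus strand: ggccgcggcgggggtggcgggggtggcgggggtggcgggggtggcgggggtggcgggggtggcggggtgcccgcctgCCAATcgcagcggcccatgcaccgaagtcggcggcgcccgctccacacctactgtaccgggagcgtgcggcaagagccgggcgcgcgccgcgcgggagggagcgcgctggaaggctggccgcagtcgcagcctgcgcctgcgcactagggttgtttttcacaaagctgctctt

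The Txnip window held the direct carbohydrate response element from 85 to 69 bases before the start. Of 32851 promoter windows of this length, 0.0457% held that form. It also held a FOXO motif from 121 to 115 bases before the start, as 3.17% of windows did, and a pair of CCAAT boxes. The Arrdc4 window held an E-box from 193 to 188 bases before the start and 6 CCAAT boxes, a motif that was present in 33.8% of windows and at least 2 times in 10.1%. Neither form of the full element was found there. The Arrdc3 window held 1 CCAAT box and no other match. Of the other members, Mlx had an E-box, present in 6.02% of windows, and 2 CCAAT boxes, Mlxip had 2 CCAAT boxes, Arrdc2 had 3, and Arrdc1 had no match. The facing form, present in 0.454% of windows, was found in none of the 7. A match is a run of letters in these windows, and binding was not measured.

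In the gene annotation (GENCODE M21, build GRCm38), Txnip occupies chr3:96557957-96561883 on the plus strand, Arrdc1 chr2:24925352-24935252 on the minus strand and Arrdc2 chr8:70835129-70839720 on the minus strand. Arrdc3 occupies chr13:80883384-80896042 on the plus strand and Arrdc4 chr7:68736995-68749241 on the minus strand. Mlx lies at chr11:101087277-101092207 and Mlxip at chr5:123394798-123457932, both on the plus strand. All 7 are protein coding. Because the strand setting of the counting is not given in the sources used here, reads of antisense genes that share exons cannot be separated from those of the members. Txnip shares exon sequence with the antisense gene Gm15441 and Mlxip with Gm15747, neither of which had a row. Mlx shares exon sequence with Psmc3ip, which had 195 to 296 counts per library and a log2 fold change of 0.12 (adjusted p = 0.507).

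The libraries held 7805544 to 9697777 counts, and aggressive replicate 3 had the lowest total. Values below are counts scaled to a common library size (CPM), with library sizes corrected by TMM factors. Across 12494 tested genes, replicate 3 was the highest of the 8 libraries in 20.6% and the lowest in 23.4%, whereas each other library was the highest in 8.51% to 15.5%. Its share of counts in ribosomal protein genes, 3.30%, lay within the range of 2.63% to 3.37% over the libraries, and its share in the 10 most counted genes, 4.81%, was the highest, with the lowest at 4.02%. All 8 markers fixed for the leukemia and myeloid progenitors were present in the table, with sums of 3882 to 4553 CPM in new AML, 3490 to 4378 CPM in aggressive replicates 1, 2 and 4 and 3203 CPM in replicate 3, while 0 of 6 T cell and 0 of 5 NK cell markers had a row. In the same order, the sums of erythroid markers were 135 to 204, 121 to 151 and 132 CPM. Those of B cell markers were 36.6 to 42.2, 32.6 to 33.7 and 30.6 CPM, and those of megakaryocyte markers 5.46 to 9.92, 3.85 to 7.28 and 10.4 CPM. The B cell sum was mostly Cd79b (means of 36.3 CPM in new and 32.1 CPM in aggressive AML), and Ms4a1, Ighm and Igkc had no row. The megakaryocyte sum held only Itga2b and Gp1ba, as Pf4, Gp9 and Ppbp had no row. Mpo was the largest part of the leukemia and progenitor sum. It had 1570 CPM in replicate 3 and 2266 CPM on average in aggressive replicates 1, 2 and 4. Of the 8 libraries, replicate 3 was highest in Hoxa9 and Meis1 and lowest in Mpo and Cebpa. Tfrc was the largest part of the erythroid sum, with means of 99.2 CPM in new AML and 97.7 CPM in aggressive AML. The 7 tested erythroid markers had a median log2 fold change of -1.01 over the 8 libraries, with 1 called lower. The part of these features of the libraries in the results below was not tested.

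Txnip, which encodes the thioredoxin-binding alpha-arrestin, had 97.2, 136, 102 and 165 CPM in new AML replicates 1 to 4. In aggressive AML it had 78.0, 114, 252 and 122 CPM in replicates 1 to 4. Replicate 3 was the highest of the 8 libraries, at 2.41 times the mean of the other 3 aggressive libraries and 2.01 times the mean of new AML, and the other 3 fell across the range of new AML or below it. The means were 125 ± 31.8 CPM (SD, n = 4) in new AML, 141 ± 76.1 CPM (SD, n = 4) in aggressive AML and 104 ± 23.3 CPM (SD, n = 3) in aggressive AML without replicate 3. In the 7 libraries without replicate 3, the log2 fold change of aggressive over new AML was -0.25 (SE 0.17, 95% interval -0.62 to 0.11, adjusted p = 0.338). No group difference was thus detectable for Txnip by this fit, and the interval spans from a fall to a small rise. A fit of the same libraries by edgeR with the replicate number as a block called Txnip lower (-0.34, adjusted p = 0.00283). The labels do not state that the numbers pair the libraries. With replicate 3, the fold change was 0.17, so that this 1 library set its sign.

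Arrdc3, an alpha-arrestin described in the turnover of the beta-2 adrenergic receptor and of integrin beta-4, had 15.9, 16.6, 12.8 and 14.4 CPM in new AML. In aggressive AML it had 8.80, 5.07, 27.0 and 4.78 CPM, from 73, 43, 208 and 42 counts. Replicates 1, 2 and 4 were all below the lowest new AML library, whereas replicate 3 was above the highest, at 4.34 times the mean of the other 3 and 1.80 times the mean of new AML. Without replicate 3, Arrdc3 was lower in aggressive AML by 2.40-fold, with 14.9 ± 1.70 CPM (SD, n = 4) in new AML and 6.21 ± 2.24 CPM (SD, n = 3) in aggressive AML. The log2 fold change was -1.27 (SE 0.21, 95% interval -1.71 to -0.82), with an adjusted p of 0.000736 by the quasi-likelihood test of edgeR. Of the 3 genes for which replicate 3 was noted, Arrdc3 was the 1 gene called in these 7 libraries, where 16.7% of all tested genes were called and 9.46% were called lower in aggressive AML. Its groups did not overlap in the 7 libraries, as in 26.5% of all tested genes. The 3 aggressive libraries in this comparison are also those against which replicate 3 was seen to stand apart, so that the fall is not fully independent of the choice of the gene. With replicate 3 included, the mean of aggressive AML was 11.4 ± 10.5 CPM (SD, n = 4), the log2 fold change was -0.41 and Arrdc3 was not called, which is given as a description.

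The RNA came from cells collected as GFP-positive, which would leave out host cells, since these do not carry the vector. In these bulk samples, fewer GFP-positive cells of a type that expresses Arrdc3 and less Arrdc3 RNA per cell cannot be told apart. The summed level of the 9 neutrophil markers was 300 to 448 CPM in new AML, 149 to 197 CPM in aggressive replicates 1, 2 and 4 and 148 CPM in aggressive replicate 3. The sum was thus lower in aggressive AML, as Arrdc3 was in the 7 libraries. The markers differed among themselves in replicate 3, which was the lowest of the 8 libraries in S100a8, S100a9 and Cxcr2 and the highest in Ly6g. In the median of the 9 markers, replicate 3 lay 0.32 above the mean of aggressive replicates 1, 2 and 4 on the log2(CPM + 1) scale. The sum of the macrophage markers, with C1qa and C1qb absent from the table, was 82.9 to 146 CPM in new AML, 56.0 to 74.7 CPM in aggressive replicates 1, 2 and 4 and 90.8 CPM in replicate 3. The part of either marker list in the Arrdc3 difference was not tested.

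Arrdc4, which like Txnip is induced by glucose, had 8.01, 10.6, 6.14 and 9.14 CPM in new AML. In aggressive AML it had 8.68, 5.66, 24.9 and 8.88 CPM, from 72, 48, 192 and 78 counts. The highest value was again that of replicate 3, at 3.22 times the mean of the other 3 and 2.94 times that of new AML, and the other 7 libraries overlapped. The means were 8.47 ± 1.88 CPM (SD, n = 4) in new AML and 7.74 ± 1.80 CPM (SD, n = 3) in aggressive AML without replicate 3. In those 7 libraries the log2 fold change was -0.12 (SE 0.22, 95% interval -0.60 to 0.35, adjusted p = 0.753), which is no detectable difference. With replicate 3 it was 0.50, so that the sign of Arrdc4, like that of Txnip, turned with this library.

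Arrdc2, an alpha-arrestin of poorly known function, had 17.4, 13.4, 13.7 and 16.9 CPM in new AML and 14.1, 17.9, 17.1 and 14.0 CPM in aggressive AML. Replicate 3 was the third highest of the 8 libraries, and the groups overlapped throughout. The means were 15.4 ± 2.07 and 15.8 ± 2.02 CPM (SD, n = 4 each), with a log2 fold change of 0.04 (SE 0.15, 95% interval -0.28 to 0.35, adjusted p = 0.889) over all 8 libraries. Arrdc2 thus did not share the high value that replicate 3 had in its 3 relatives.

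Arrdc1, which recruits NEDD4-family ligases and the ESCRT protein TSG101 to vesicles that bud from the plasma membrane, had 64.0, 66.0, 63.8 and 64.7 CPM in new AML. It had 56.6, 60.2, 51.6 and 52.8 CPM in aggressive AML. Every aggressive library was below every new one, and replicate 3, the lowest of the 8, lay on the side of its own group. The means were 64.6 ± 0.999 CPM and 55.3 ± 3.91 CPM (SD, n = 4 each), and the log2 fold change was -0.22 (SE 0.08, 95% interval -0.40 to -0.04). The groups of Arrdc1 alone among the 7 genes did not overlap over the 8 libraries, as in 21.8% of all tested genes, with 12% lower in aggressive AML. The difference did not pass the threshold after adjustment over all genes (adjusted p = 0.0764 by edgeR), while 18.4% of all tested genes did.

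**Figure D1:**
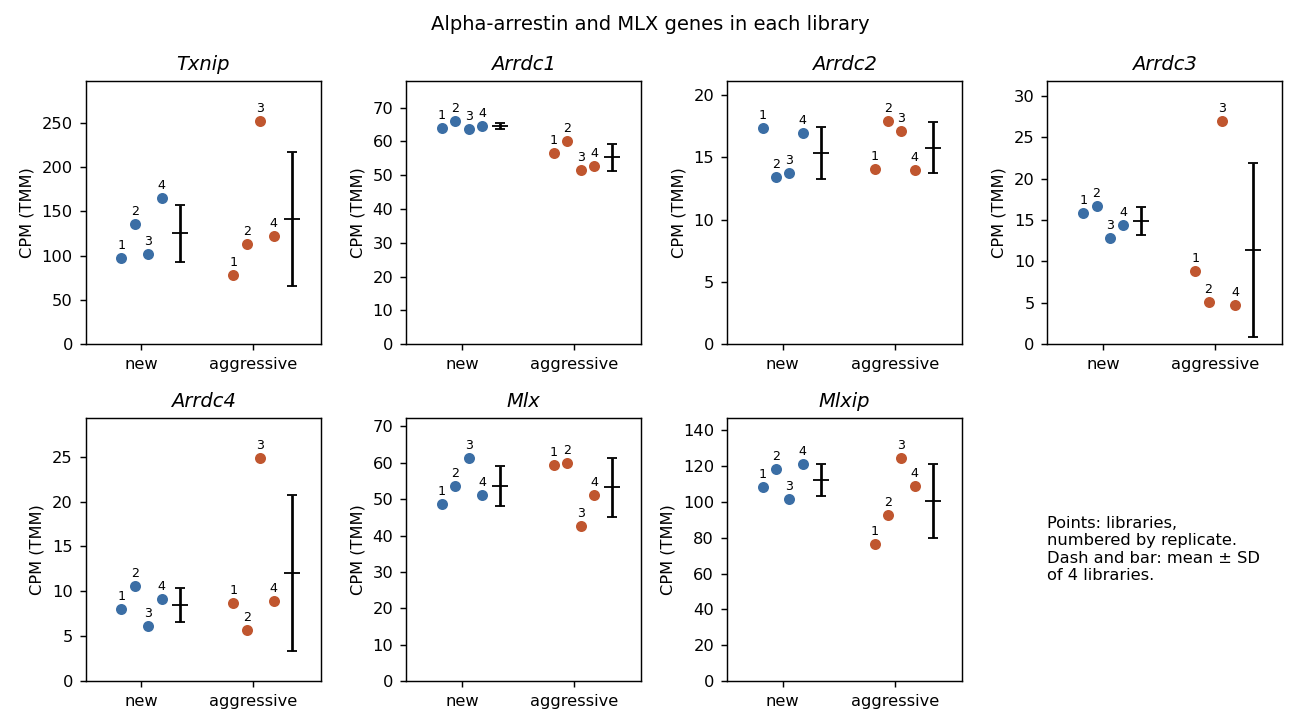
CPM (TMM-scaled, linear axes from 0) of each of the 7 genes in the 4 new AML (blue) and 4 aggressive AML (orange) libraries, numbered by replicate, with the mean ± SD of each group in black. Aggressive replicate 3 is at 252, 27.0 and 24.9 CPM in Txnip, Arrdc3 and Arrdc4, above every other library, and at 51.6 CPM in Arrdc1 and 42.6 CPM in Mlx, below every other library.

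Mlx, the obligate partner of MondoA and ChREBP in DNA binding, had 48.6, 53.6, 61.4 and 51.1 CPM in new AML and 59.5, 59.9, 42.6 and 51.1 CPM in aggressive AML. Replicate 3 was the lowest of the 8 libraries, at 0.750 times the mean of the other 3 aggressive libraries. The group means were 53.7 ± 5.54 and 53.3 ± 8.17 CPM (SD, n = 4 each), with a log2 fold change of -0.01 (SE 0.12, 95% interval -0.26 to 0.24, adjusted p = 0.969). No difference was detectable, and the interval covers moderate changes in either direction.

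Mlxip, which encodes MondoA, had 108.5, 118, 102 and 122 CPM in new AML and 76.5, 93.0, 125 and 109 CPM in aggressive AML. Replicate 3 was the highest of the 8 libraries, but it exceeded new AML replicate 4 by only 0.04 on the log2(CPM + 1) scale. The means were 112.5 ± 9.001 and 101 ± 20.7 CPM (SD, n = 4 each), with a log2 fold change of -0.16 (SE 0.12, 95% interval -0.42 to 0.10, adjusted p = 0.391) over 8 libraries. Without replicate 3 the fold change was -0.27 and still did not pass (adjusted p = 0.0948).

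Of the 4 genes that did not prompt the choice, none was called in the 8 libraries by edgeR, against 18.4% of all tested genes. An unadjusted p under 0.05 was found for 1 of the 4 there and for 2 of the 4 without replicate 3, against 32.6% and 30.8% of all tested genes. Without replicate 3, 6 of the 7 genes had a negative log2 fold change and Mlx a positive one, and only Arrdc3 was called, against 16.7% of all tested genes.

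**Figure D2:**
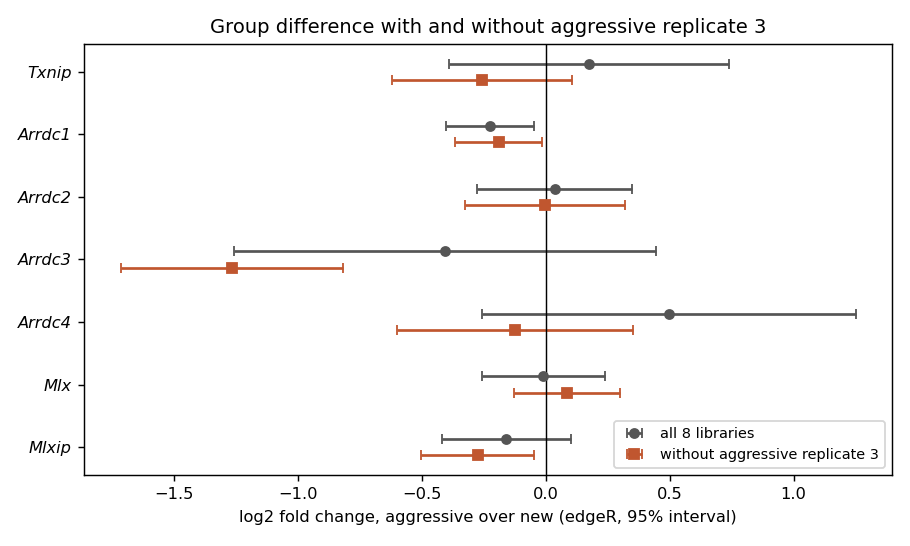
Log2 fold change of aggressive over new AML (x axis, points with 95% intervals from edgeR) for the 7 genes over all 8 libraries (grey, a description for Txnip, Arrdc3 and Arrdc4) and over the 7 libraries without aggressive replicate 3 (orange). Txnip and Arrdc4 change sign between the fits (0.17 to -0.25 and 0.50 to -0.12), as do Arrdc2 and Mlx near 0 (0.036 to -0.002 and -0.009 to 0.086). Arrdc3 moves from -0.41 to -1.27, and Arrdc1 and Mlxip are negative in both.

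Per kilobase of annotated exon, the level of Txnip was the highest of the 7 genes in new AML at 40.03 ± 10.2 CPM per kb (SD, n = 4). Mlx followed at 26.8 ± 2.77 and Arrdc1 at 25.7 ± 0.398 CPM per kb, a pair that does not differ beyond its spread. Mlxip had 13.5 ± 1.08 and Arrdc2 4.75 ± 0.640 CPM per kb. Arrdc3, at 2.38 ± 0.271, and Arrdc4, at 2.10 ± 0.465 CPM per kb, were the lowest and again lay within their spread. In aggressive replicate 3, Txnip had 80.6, Arrdc4 6.16 and Arrdc3 4.30 CPM per kb, so that Arrdc4 exceeded both Arrdc3 and Arrdc2, the latter at 5.29 CPM per kb in that library.

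The distance of replicate 3 from its own group can be set beside the same distance in every tested gene. On the log2(CPM + 1) scale, replicate 3 exceeded the mean of aggressive replicates 1, 2 and 4 by 2.00 in Arrdc3, 1.59 in Arrdc4 and 1.29 in Txnip, against a median of -0.00437 over all tested genes. These 3 values chose the genes, and they stand at percentiles 99.98, 99.90 and 99.78 of the 12494 differences. Mlxip, at 0.44, stood at percentile 91.3 and Arrdc2, at 0.16, at percentile 72.6. Arrdc1, at -0.13, stood at percentile 32.8 and Mlx, at -0.40, at percentile 10.6.

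Measured against the next highest of the 8 libraries, replicate 3 was ahead by 1.16 in Arrdc4 on the same scale, a lead that 11 tested genes equalled or exceeded, Arrdc4 included. The lead was 0.66 in Arrdc3, matched or exceeded in 99 genes, and 0.61 in Txnip, matched or exceeded in 128 genes. Replicate 3 was the highest library in 4 of the 7 genes and the lowest in 2, and the 3 genes that prompted the choice are among those 4.

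**Figure D3:**
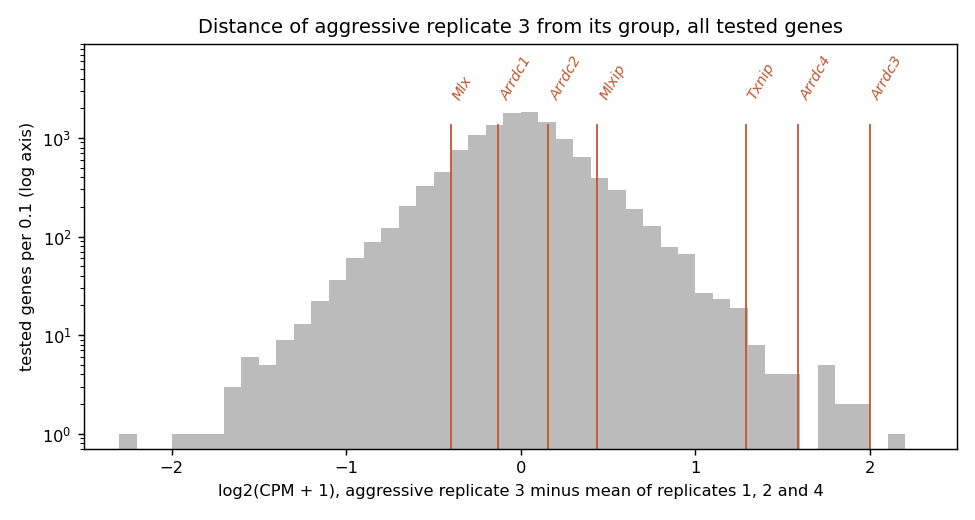
Histogram (log count axis, bins of 0.1) of the difference in log2(CPM + 1) between aggressive replicate 3 and the mean of aggressive replicates 1, 2 and 4 in 12494 tested genes, with the 7 genes as orange lines. Arrdc3, Arrdc4 and Txnip lie in the right tail at 2.00, 1.59 and 1.29, and the other 4 genes lie between -0.40 and 0.44.

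The spread between replicates was compared without replicate 3, within 2 classes of level set by the mean over the other 7 libraries. Txnip, Arrdc1, Mlx and Mlxip were read against 7874 genes of at least 20 CPM, and Arrdc2, Arrdc3 and Arrdc4 against 2423 genes from 5 to below 20 CPM, since counting error widens the spread of lower genes. In new AML, the SD of log2(CPM + 1) was 0.36 for Txnip, at percentile 98.8 of its class, whose median SD was 0.12, and the highest library was 1.70 times the lowest. The SD of Arrdc1 was 0.02, at percentile 0.787, so that its 4 new AML values were among the most alike of its class. Mlx and Mlxip stood at percentiles 65.8 and 49.1 in new AML. Of the lower genes, Arrdc4 had an SD of 0.30 in new AML, at percentile 80.5 of its class, whose median was 0.19, while Arrdc2 and Arrdc3 stood at percentiles 46.2 and 34.1.

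Among aggressive replicates 1, 2 and 4, the SD was 0.34 for Txnip and 0.25 for Mlxip, at percentiles 98.6 and 94.7 of their class, with Mlx at percentile 63.7 and Arrdc1 at percentile 43.5. It was 0.42 for Arrdc3 and 0.32 for Arrdc4, at percentiles 94.9 and 85.4 of the lower class, and Arrdc2 stood at percentile 51.8. Txnip was thus among the more variable genes of its class in both groups without replicate 3. Arrdc3 was so in the 3 aggressive libraries, which are those that replicate 3 was read against.

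**Figure D4:**
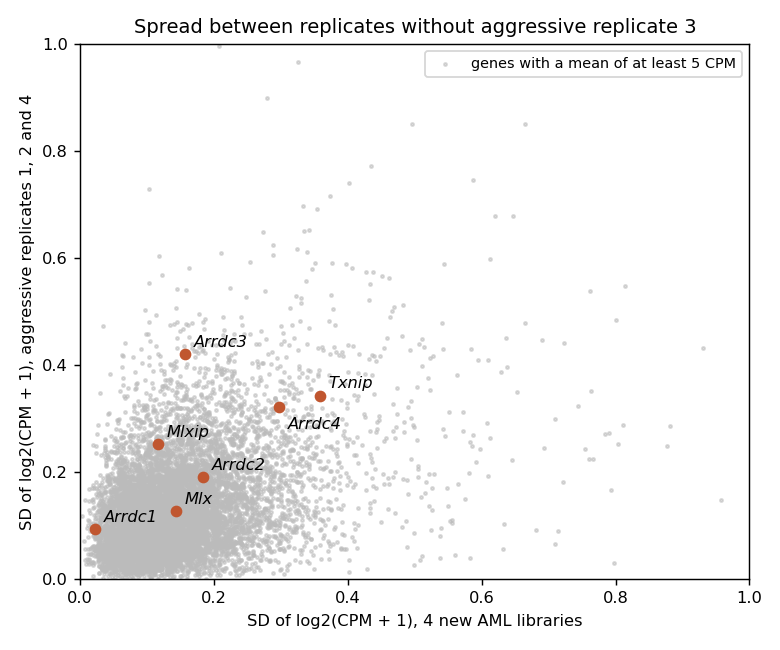
SD of log2(CPM + 1) over the 4 new AML libraries (x axis) and over aggressive replicates 1, 2 and 4 (y axis) for genes with a mean of at least 5 CPM over these 7 libraries (grey, 21 of 10297 genes outside the axes) and the 7 genes (orange). Txnip lies at 0.36 and 0.34, Arrdc4 at 0.30 and 0.32, Arrdc3 is high on the y axis alone (0.42), and Arrdc1 lies at the left edge (0.02).

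The 5 genes whose log2(CPM + 1) was most like that of Txnip over the 8 libraries were Phip, Mob1b, Mtss1, Sp4 and Foxn3, with Pearson's r of 0.96 to 0.99, and r of 0.89 to 0.97 over the 7 libraries without replicate 3. In replicate 3 they were 1.48 to 1.80 times the mean of the other 3 aggressive libraries, less than the 2.41 times of Txnip. For Arrdc4 the 5 genes were Dedd2, Zfp1, Zfp51, Nhlrc2 and Fam83d, with r of 0.95 to 0.98 over 8 libraries and 0.77 to 0.95 over 7. For Arrdc3 they were Arhgap25, Arpc1b, Lat2, Plekho1 and Mcm9, with r of 0.94 to 0.97 over 8 libraries and 0.90 to 0.97 over 7. Of these 15 genes, Plekho1 was the 1 called in the 7 libraries, with 73.8 ± 4.26 CPM (SD, n = 4) in new AML, 54.8 ± 3.51 CPM (SD, n = 3) in aggressive AML and 76.0 CPM in replicate 3 (log2 fold change -0.43, adjusted p = 0.00338). These correlations describe 8 libraries that share their depth and their group structure, were picked as the highest of all genes and carry no test.

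The partners and neighbours of these genes were read from lists, whose counts stand beside 8.15% of all tested genes called higher and 10.2% called lower in the 8 libraries, and 7.28% higher and 9.46% lower in the 7. The median log2 fold change of all tested genes was 0.000444. Arrdc5 and Mlxipl, which encodes ChREBP, had no row. Of the beta-arrestins, Arrb1 was lower in aggressive AML (58.5 ± 9.65 against 38.2 ± 2.74 CPM, SD, n = 4 each, adjusted p = 0.00209), and Arrb2 was not called.

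Of 19 thioredoxin-system genes, which include the thioredoxin that TXNIP binds, 2 were higher in both fits and none lower, with a median of 0.06. They were Glrx (log2 fold change 0.39, adjusted p = 0.0169) and Prdx6 (0.33, adjusted p = 0.00897). Of 10 genes for NEDD4-family ligases and adaptors, the enzymes that alpha-arrestins recruit, 2 were higher and none lower (median 0.12). Nedd4 rose from 96.2 ± 10.6 to 174 ± 19.6 CPM (SD, n = 4 each, adjusted p = 3.8e-05) and Ndfip2 rose by 0.39 on the log2 scale (adjusted p = 0.0339), the latter not called without replicate 3 (adjusted p = 0.0616).

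Of 15 genes for glucose uptake and hexose phosphates, the sugars that MondoA senses, 5 were higher and 2 lower in both fits (median -0.01). The 4 with the smallest adjusted p were Slc37a4, Slc2a1, the main glucose transporter that TXNIP acts on, Gpi1 and Pgm2, all higher, with log2 fold changes of 0.54, 0.56, 0.36 and 0.42. Of 20 genes of lower glycolysis and lactate, 8 were higher and 1 lower in both fits (median 0.24), led by the lactate exporter Slc16a3 (1.19), Pdk1 (0.54), Eno1 (0.51) and Pfkp (0.41). Txnip and Arrdc4 were tested only in the 7 libraries, and a link between them and these glycolytic genes was not tested.

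Of 9 genes of the MAX and MLX dimer network, 1 was higher and 2 lower over 8 libraries (median -0.32), and 1 higher and 3 lower over 7. Mxi1 rose by 0.45 on the log2 scale (adjusted p = 0.00499 by edgeR) and Max fell by 0.33 (adjusted p = 0.0270). Mycl went from 4.67 ± 1.40 to 0.465 ± 0.386 CPM (SD, n = 4 each, adjusted p = 0.000102). Mycl averaged 0.275 CPM in aggressive replicates 1, 2 and 4, so that it passed the low-count filter through new AML. Counting error is large at such levels, and the test of Mycl is not independent of the filter. Myc was lower without replicate 3 (adjusted p = 0.0284) and not called over 8 libraries (adjusted p = 0.0936). It had 51.6 CPM in replicate 3, against 160 ± 25.3 CPM in the other 3 aggressive libraries (SD, n = 3) and 204 ± 15.9 CPM in new AML (SD, n = 4). Replicate 3 was the lowest library in Myc by more than 1 on the log2(CPM + 1) scale. It was the lowest by at least 1 in 31 of the 12494 tested genes (0.248%), and by any margin in 23.4%. Of 7 other reported targets of MondoA or ChREBP, none was higher and 1, Pklr, was lower in both fits (median -0.13). Pklr went from 3.66 ± 1.76 to 0.499 ± 0.580 CPM (SD, n = 4 each, adjusted p = 0.00623 by edgeR). Its aggressive mean lay below 1 CPM, with 0 CPM in replicate 3, so that the limits given for Mycl hold for Pklr too. Klf10, 1 of these 7, was highest in replicate 3 at 49.5 CPM, against 26.6 ± 5.93 CPM in the other 3 aggressive libraries (SD, n = 3), and it is named after its values were seen, as are Per1, Sgk1, Pik3ip1 and Dusp1 below.

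Txnip and its relatives are also known to respond to AMPK, glucocorticoids and FOXO factors. Of 9 genes for AMPK subunits and upstream kinases, 3 were higher (Cab39, Prkaa1 and Prkag1, log2 fold changes 0.36, 0.27 and 0.23) and 1 lower (Prkag2, -0.57), and 2 were higher and 1 lower without replicate 3. Of 11 glucocorticoid-responsive genes, 1 was higher (Klf9, 0.90) and 3 lower (Nr3c1, the receptor, Fkbp5 and Cebpd, -0.39, -0.47 and -0.59) in both fits. Replicate 3 was the highest library in 5 of these 11 and the lowest in 1, against 20.6% and 23.4% of all tested genes. Other lists had such shares too. Replicate 3 was highest in 5 of the 10 NEDD4-family genes and lowest in 1. The same counts were 6 and 1 of the 20 genes of lower glycolysis and lactate, and 1 and 5 of the 9 AMPK genes. Among the glucocorticoid-responsive genes, replicate 3 had 67.5 CPM in Per1, 60.5 in Klf9, 27.1 in Sgk1 and 177 in Pik3ip1, against means of 36.8, 31.3, 16.5 and 89.7 CPM in the other 3 aggressive libraries. It had 108 CPM in Fkbp5, 30.6 in Cebpd and 27.0 in Dusp1, against 124, 49.9 and 34.2 CPM. Of 14 FOXO factors and responsive genes, none was higher and 4 were lower (among them Foxo4, Cited2 and Ccng2, -0.62, -0.38 and -0.45), with 5 lower without replicate 3. The medians of these 3 lists were -0.06, 0.02 and -0.34.

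Of 12 ATF4-responsive genes, 5 were higher and none lower (median 0.41), and 7 were higher without replicate 3. The 4 with the smallest adjusted p were Psat1, Atf4, Asns and Slc3a2, with log2 fold changes of 0.40, 0.62, 1.00 and 0.52. Of 15 immediate early genes, 2 were higher and 3 lower (median -0.05), and 1 higher and 3 lower without replicate 3, led by Fosl2 (-0.85), Nr4a1 (0.91), Btg2 (-0.74) and Ier5 (-0.59). Replicate 3 lay 0.32 below the other 3 aggressive libraries in the median of the ATF4-responsive genes on the log2(CPM + 1) scale and 0.35 above them in that of the glucocorticoid-responsive genes, where the 5 alpha-arrestins ranged from -0.13 to 2.00.

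**Figure D5:**
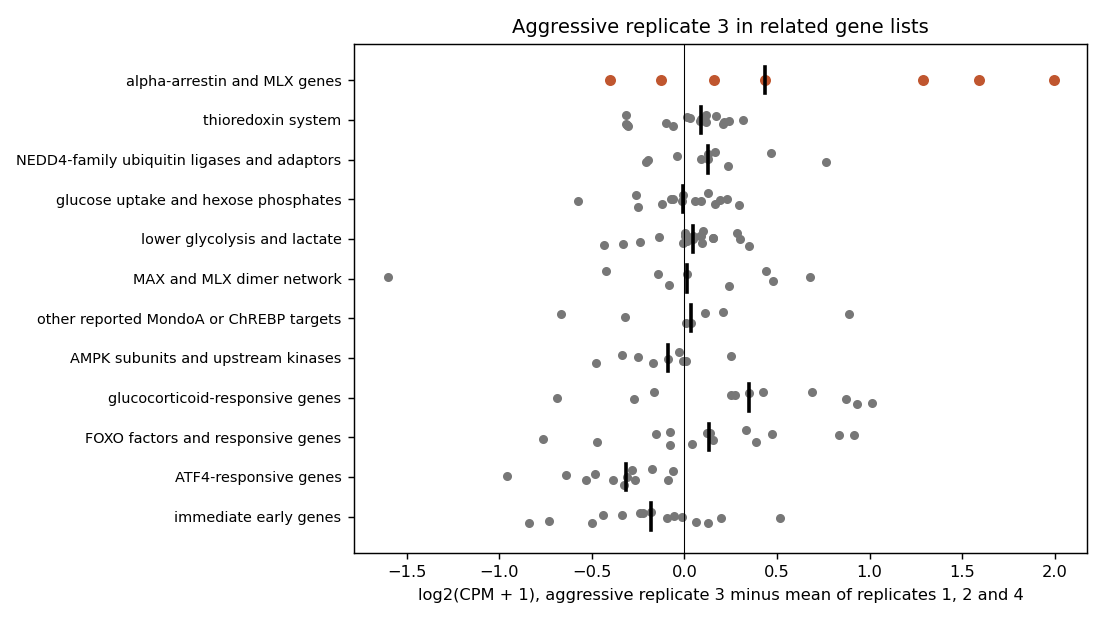
Difference in log2(CPM + 1) between aggressive replicate 3 and the mean of aggressive replicates 1, 2 and 4 (x axis) for the 7 genes (orange) and for the tested genes of 11 related lists (grey, shifted at random up and down), with the median of each list as a black bar. Medians of the lists lie between -0.32 and 0.35, and Arrdc3, Arrdc4 and Txnip lie to the right of every list gene drawn.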

How the data were processed

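The members and the gene lists were chosen with earlier results of these data known. Per the labels and the study's methods, the authors isolated RNA from GFP-positive cells, purified polyadenylated RNA, sequenced both ends, aligned reads to mm10 with HISAT2 and counted them with Rsubread 2.12.3; annotation and strand setting are not given in the sources used here. The file name of the deposited table says CPM, but the columns hold integers with unequal totals, which were taken as raw read counts. All 12 within-group pairs of libraries differed beyond counting noise (chi-square per degree of freedom 4.01 to 10.8).

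Testing was limited to genes that reached 1 CPM in 4 or more of the 8 libraries (12494 genes, with 329 rows left out) and used the quasi-likelihood test of edgeR 4.0.16 (R 4.3.3) with TMM scaling, group as the only term and Benjamini-Hochberg adjustment over all tested genes, threshold 0.05, two-sided. This count test replaced the study's limma on log2 CPM, which is an alternative. Txnip, Arrdc3 and Arrdc4 were tested without aggressive replicate 3, the other genes in all 8 libraries. The p-values set the group difference against the spread between these libraries, which are not known to cover independently generated leukemias. Descriptive differences use log2(CPM + 1), and the classes of level for the spread were set after the values were seen. The fits were tested on simulated counts. Named genes were the 7 members, for each of Txnip, Arrdc3 and Arrdc4 the 5 genes with the highest Pearson r over 8 libraries, and in each of 12 pathway lists the called genes, or the 4 with the smallest adjusted p; a called gene of 1 list is not reported here. The 8 marker lists were used as summed CPM. Promoter sequences are from RefSeq (GRCm38.p6, 7 of 7 members matched); no sequencing batch or date is labelled, so batch and group cannot be told apart.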

Additional observations from a re-analysis of the deposited data

Results flagged for a closer look

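Arrdc4 in aggressive AML was set apart by 1 sample far from the others. Aggressive replicate 3 had 24.9 CPM, and its gap to the nearest of the other 3 aggressive libraries was 0.832 of the range of the group, above Dixon's 95% critical value for 4 samples. This was the 1 case among 14 groups examined, the 7 genes in both conditions, and chance alone sets apart about 5% of such groups. Arrdc4 is 1 of the 3 genes that were chosen because of this library, so that the value describes the choice and is no independent test. On the log2(CPM + 1) scale the same share was 0.709, below that limit. In Txnip and Arrdc3 the gap of replicate 3 was below the limit.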

How the results depend on the processing

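Over 8 libraries, 2296 genes were called, and 16 alternatives gave 1534 to 3122. Over 7 libraries, 2092 were called, with 1212 to 2515 when a further library was left out (1285 without aggressive replicate 1 and 1212 without aggressive replicate 2) and 3139 with the replicate number as a block. The labels do not state that the numbers pair the libraries. The deviations of same-numbered libraries correlated at -0.0654 to 0.204, 1 of 4 above 0.1, and 2 of 4 new AML libraries were closest to their own number. These values show no clear pairing and cannot exclude one. In the 7 libraries, new AML replicate 3 has no library of the same number. With that block, Txnip had a log2 fold change of -0.34 and was called (adjusted p = 0.00283), and no other member changed its call. Adding replicate 3 gave 0.17 for Txnip, -0.41 for Arrdc3 (no longer called) and 0.50 for Arrdc4. Leaving out a further library gave -0.38 to -0.09 for Txnip, -1.60 to -1.11 for Arrdc3 (called each time, adjusted p 0.000217 to 0.00783) and -0.250 to 0.061 for Arrdc4, which turned positive without aggressive replicate 2. Over the other alternatives and the omissions, Arrdc1 (-0.27 to -0.19, adjusted p 0.0641 to 0.178) and Mlxip (-0.28 to -0.05, adjusted p 0.0589 to 0.801) kept their sign and were not called. Values near 0 changed sign for Arrdc2, at -0.031 to 0.10 when a library was left out, and for Mlx, at -0.069 to 0.086 when a library was left out and at 0.067 by limma-voom with quality weights. The cause of these changes was not tested. At 42 to 208 counts, counting error limits Arrdc3 and Arrdc4 more than Txnip, with 647 to 1942 counts.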

Other observations

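The direct carbohydrate response element found before Txnip occurred in the promoter windows of 14 genes, of which 10 were tested. Txnip itself was chosen for its value in aggressive replicate 3 and is left out of the counts. Of the other 9, that library was the highest of the 8 in 4, against 20.6% of all tested genes, and the lowest in 2, against 23.4%. Relative to the mean of the other 3 aggressive libraries, the values in the 4 genes where it was highest were 1.66 times in 9230116N13Rik, 1.46 times in Fnip1, which encodes a folliculin partner in AMPK and mTORC1 signalling, 1.11 times in A430005L14Rik and 1.09 times in Rbbp4. The value of 9230116N13Rik rests on 1.94 CPM in aggressive replicate 3 against a mean of 1.17 CPM. That is close to the filter of 1 CPM, where counting error is large. Nfkb2, at 0.778 times, and Man2b2, at 0.894 times, were lowest in that library. In the 7 libraries without replicate 3, Nfkb2 was the 1 gene of these 10 called between the groups (log2 fold change -0.44, adjusted p = 0.0210). The other 9 genes were chosen by the motif, which was itself chosen with the Txnip sequence known, and no test was made over them.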
